A study of Mus musculus with 2 samples.

Results

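Ribosomal proteins and translation factors are the parts of the protein-making machinery that can be followed by gene name on these arrays. Members were all non-control probes whose gene name begins with Rpl, Rps, Eif and a digit, or Eef. Names beginning with Eif2c, the older name of the Argonaute genes, or Rps6k, the S6 kinases, were left out. This gave 184 of 15208 probes and 119 of 11142 genes, of which 83 genes (126 probes) encode ribosomal proteins or their close copies and 36 genes (58 probes) encode initiation or elongation factors and their regulators. Mitochondrial ribosomal proteins carry other names and were not members, and their 55 genes (64 probes) serve below as a neighbouring set.

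The material was 2 preparations labelled as isolated Sertoli cells, which line the seminiferous tubule and nurse the germ cells. Donors were male Swiss mice, adult at 3 months. One preparation was an untreated control, and the other was taken 1 month after busulphan, an alkylating drug used to deplete germ cells, at 25 mg/kg body weight. Cells were freed with collagenase and hyaluronidase, taken from the finer strainer and not cultured, and the number of mice pooled is not given in the labels. The question set by the series is which transcripts of Sertoli cells differ after busulphan. Each preparation was read on 1 single-colour Agilent array. With n = 1 per group, differences cannot be checked against replicates, and p-values are not given.

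A ribosome is built from a small and a large subunit, each a shell of proteins on ribosomal RNA. Initiation factors bring the small subunit to an mRNA: eIF4 proteins bind the cap and unwind the leader, eIF3 holds the small subunit, and eIF2 delivers the initiator tRNA and is recharged by eIF2B. Kinases that phosphorylate eIF2 and proteins that sequester eIF4E slow this step, and elongation factors then drive the chain forward. In the testis, the X chromosome, which holds several ribosomal protein genes, is silenced in meiotic germ cells, and autosomal copies such as Rpl39l are active in germ cells.

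The share of probes well above background was 80.9% in the control and 79.3% in busulphan, and 106 and 18 probes were saturated. The spot signals at the 75th percentile were 1046 and 905. Signals below are those spot intensities, and a log2 ratio is busulphan minus control after each array was set to its own 75th percentile. For the members, the error that the feature extraction software assigns to a log2 ratio had a median of 0.20, which covers the reading of the spots and not the variation between animals or preparations. Against the label, the control preparation held abundant germ cell RNA: the summed signal of 11 spermatid markers was 607756 in control and 60641 in busulphan, with 8 of the control spots saturated, and that of 12 spermatocyte markers was 155672 and 13810, of which Pgk2, saturated in control, gave 66530 and 1517. The summed signal of 14 Sertoli cell markers was 12579 and 119885, of which Clu, saturated in busulphan, gave 8565 and 68019. Of the 14, 13 were at least 2-fold higher in busulphan. All markers compared in these 3 lists were well above background on both arrays. Of the other marker lists, 6 of 10 macrophage markers were higher and 2 lower, 3 of 7 peritubular myoid markers higher and none lower, 2 of 8 Leydig cell markers higher and 1 lower, and 2 of 10 spermatogonial markers higher and 2 lower. These marker differences run alongside every result below, and their part in them was not tested. In bulk RNA of this kind, fewer cells of a type and less RNA per cell cannot be told apart.

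The arrays read each gene through probes of 60 bases. The probes below are printed because the results turn on them: Rpl10 and Rpl29 as ribosomal genes whose probes moved together, Rpl36a as one whose probes did not, and Eif4b and Eif4g1 as the eIF4 genes with the lowest values on the probe used, each with other probes beside it. The files give a gene and an mm9 position for most probes, but do not place it within the transcript (exon, intron or untranslated region). Capitals mark the longest run of at least 12 bases shared between printed probes of the same gene.
Rpl10 probe 1: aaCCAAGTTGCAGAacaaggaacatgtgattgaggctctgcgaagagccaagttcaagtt
Rpl10 probe 2: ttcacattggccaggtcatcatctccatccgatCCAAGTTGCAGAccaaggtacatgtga
Rpl29 probe 1: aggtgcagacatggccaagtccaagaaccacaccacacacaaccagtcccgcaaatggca
Rpl29 probe 2: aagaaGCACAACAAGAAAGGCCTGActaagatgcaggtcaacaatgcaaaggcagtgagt
Rpl29 probe 3: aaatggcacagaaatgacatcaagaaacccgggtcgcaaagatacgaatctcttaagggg
Rpl29 probe 4: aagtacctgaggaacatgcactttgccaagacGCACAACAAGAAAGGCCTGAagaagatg
Rpl36a probe 3: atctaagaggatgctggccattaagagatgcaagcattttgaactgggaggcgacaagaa
Eif4b probe 2: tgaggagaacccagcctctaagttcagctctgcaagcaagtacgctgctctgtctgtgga
Eif4b probe 3: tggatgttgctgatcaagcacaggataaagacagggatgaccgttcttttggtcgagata
Eif4g1 probe 1: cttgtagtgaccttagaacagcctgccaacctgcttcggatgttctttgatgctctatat
Eif4g1 probe 2: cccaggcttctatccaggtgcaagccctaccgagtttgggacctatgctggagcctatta

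On the plus strand of mm9, Rpl29 probe 4 lies at chr9:106333409-106333468 and probe 2 at chr9:106333436-106333495. Their overlap of 33 bases holds 3 differing bases. Rpl10 probe 1 lies at chrX:71518098-71518157, and probe 2, the brighter of the pair, has no position in the files. Laid end over end without gaps, they overlap by 29 bases with 3 differing. Rpl36a probe 3 lies at chrX:131122046-131122105. Eif4g1 probe 1 spans chr16:20689378-20692351 and probe 2 spans chr16:20675856-20677771, nearer the start of the gene.

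With each array set to its 75th percentile, most ribosomal protein genes had similar signals in both preparations, while translation initiation factors were mostly lower in busulphan. Of 119 member genes, 113 were compared, and with 2-fold (1 log2 unit) as the size that counts, 9 were higher and 23 lower in busulphan. Among all 9438 genes compared, 31.3% were higher and 29.5% were lower, against 7.96% and 20.4% of the members. The count split moved with the scaling: it was 21 higher and 13 lower under quantile normalization, 11 and 15 with the 75th percentile of probes that were bright on both arrays, and 3 and 62 when the arrays were set to 6 spike-in probes. The brightest probes of Rpl7a, Rplp0, Rplp1, Rps12 and Rps18 were saturated on both arrays, and these genes were left out of the comparison. Dimmer, unsaturated probes gave log2 ratios of -0.27 and -0.45 for Rpl7a, -0.05 for Rplp0 and -0.51 for Rps18. Eef1a2, the muscle and nerve form of the elongation factor, was not well above background on either array.

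The 78 ribosomal protein genes compared had a median log2 ratio of -0.14 with a standard deviation across genes of 0.79, against a median of 0.07 and a standard deviation of 2.10 for all genes. Within 2-fold lay 64 of them (82.1%), compared with 39.2% of all genes, and 61.5% lay within 1.5-fold, compared with 23.5%. The sign of that median depended on scaling, being 0.51 under quantile normalization, 0.00 with the 75th percentile of probes that were bright on both arrays and -1.03 with spike-in scaling. The share within 2-fold depended on it too. Under spike-in scaling 1 of the 78 was higher and 40 were lower, beside 1512 and 4387 of all 9438 genes. Under quantile normalization 17 were higher and 1 lower. The standard deviation stayed between 0.77 and 0.85 in the 12 alternatives, though a scaling constant barely changes it. The 35 translation factor genes compared had a median of -0.51 and a standard deviation of 1.26. Of them, 4 were higher (11.4%), 14 lower (40%) and 17 less than 2-fold apart. The 55 mitochondrial ribosomal proteins had a median of -0.31 and a standard deviation of 1.14. Of them, 5 were higher (9.09%), 16 lower (29.1%) and 34 less than 2-fold apart. Among all genes, 31.3% were higher and 29.5% lower, so the lower share of the mitochondrial set was close to that of all genes.

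**Figure D1:**
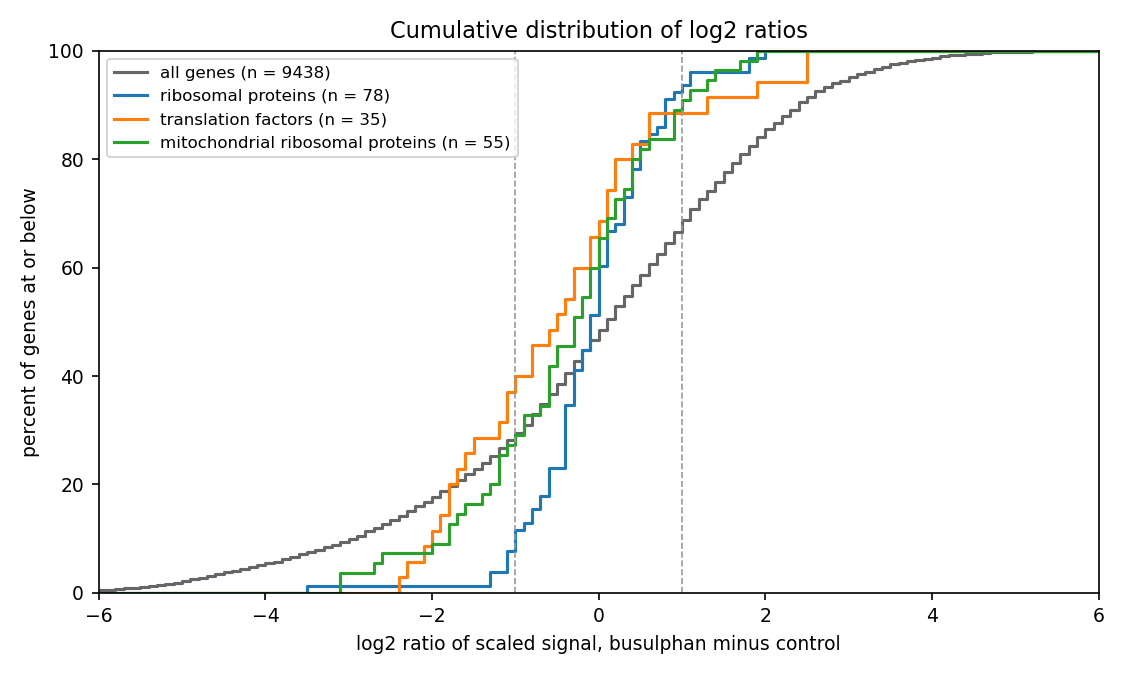
Cumulative percent of genes (y) at or below each log2 ratio of scaled signal, busulphan minus control (x), for 9438 genes, 78 ribosomal proteins, 35 translation factors and 55 mitochondrial ribosomal proteins, with dashed lines at 2-fold. The ribosomal protein curve is the steepest of the 4, with 82.1% of its genes between the dashed lines, while 40% of the translation factors lie at or below the left line.

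Saturation narrows ratios, and 17 member spots on the control array and 6 on the busulphan array were saturated. Signals over 40000 were read for 33 member probes in control and 19 in busulphan. Those not flagged as saturated, such as Rps16 (57244 and 63031), stayed in as measured, also where saturated probes were left out. With saturated probes left out, the standard deviation of the ribosomal proteins was 0.85, with 6 higher and 8 lower. Among genes whose mean scaled signal was 4 to 16 times the array's 75th percentile (log2 of 2 to 4), 14 of 18 subunit proteins (77.8%) lay within 2-fold, compared with 32.8% of 963 genes of that level. At a scaled log2 level of 4 or more, 43 of 47 subunit proteins (91.5%) lay within 2-fold, compared with 43.2% of 259 genes. That class includes the saturated spots. Rpl37a, Rpl41, Rps14 and Rps23, entered at 0, count as within 2-fold here and in the ribosomal protein counts above. So do Rpl11, Rpl26, Rps2, Rps20 and Rps27, whose ratios are bounds and may be larger. In the class below (log2 of 0 to 2), 2 of 4 subunit proteins lay within 2-fold, compared with 34.3% of 1984 genes.

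The large subunit held 43 genes that were compared, with a median log2 ratio of -0.16, 2 higher, 3 lower and 38 within 2-fold. Rpl4 stood at a signal of 4585 in control and 3973 in busulphan, a log2 ratio of 0.00. Rpl12 stood at 37359 and 32678, a log2 ratio of 0.02, and Rpl5, which binds the 5S ribosomal RNA, at 42261 and 43535, a log2 ratio of 0.25. The middle part of the list, between its quartiles, ran from -0.57 to 0.20. Rpl39, a small protein lining the exit tunnel, was the highest, at 3152 in control and 9080 in busulphan (log2 ratio 1.73 ± 0.20, software error). Rpl10, which completes the joining surface of the large subunit, had 7154 and 12524 on its brighter probe (1.02) and 3643 and 9027 on the other (1.52). Both probes of Rpl10 were higher in busulphan.

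The 3 large subunit genes past 2-fold on the low side were Rpl36, Rpl24 and Rpl29, each read by more than 1 probe. The brighter Rpl36 probe had 33954 in control and 11910 in busulphan (-1.30) and its other probe 23288 and 8390 (-1.26). Rpl24 had 6091 and 2331 (-1.18) on one probe and 6270 and 2174 (-1.32) on the other. Rpl29, whose 4 probes are printed above, had 5991 and 2411 on probe 1 (-1.10), 1434 and 390 on probe 2 (-1.67), 3062 and 867 on probe 3 (-1.61) and 3898 and 1099 on probe 4 (-1.62). All 8 probes of these 3 genes were at least 2-fold lower in busulphan. Under quantile normalization the large subunit median was 0.49 instead.

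The small subunit held 29 genes compared, with a median log2 ratio of -0.01, 2 higher, 3 lower and 24 within 2-fold. Rps4x, the X-linked form of a core small subunit protein, was the highest ribosomal protein of all, at 8977 in control and 30310 in busulphan (1.96 ± 0.20, 3.9-fold). Rps19, needed to mature the small subunit RNA, had 11004 and 19362 on its brighter probe (1.02) and 447 and 812 on the other (1.07), so both its probes read about 2-fold higher. Rps3 had 20933 in control and 31010 in busulphan (0.78) and stayed under 2-fold.

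At the low end of the small subunit, Rps7 had 63586 in control and 26249 in busulphan (-1.07), and Rps26 had 10079 and 4312 (-1.02). Rps13 was saturated in control at 66472 against 26671 in busulphan and so was at least 2.16-fold lower on that probe. A dimmer Rps13 probe read 108 and 389, a log2 ratio of 2.06 in the other direction, so the direction of Rps13 depends on the probe. Rps14 and Rps23, with control signals of 61995 and 67384, had a saturated spot and no fold could be given. They were entered at 0, as were Rpl37a, Rpl41 and Eef1a1.

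**Figure D2:**
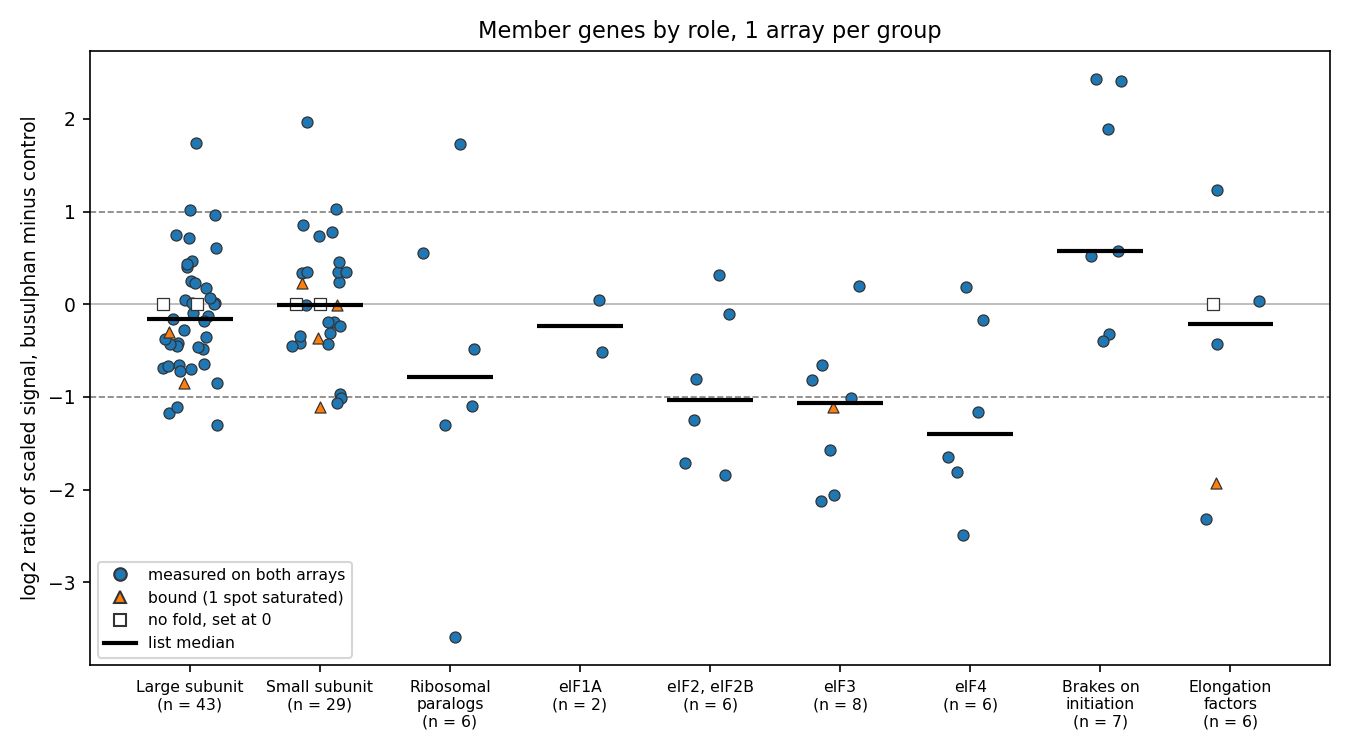
Log2 ratio of scaled signal, busulphan minus control (y), for each of 113 member genes grouped by role (x), 1 point per gene and 1 array per group, with bars at list medians and dashed lines at 2-fold. Subunit proteins gather around 0, the eIF2, eIF3 and eIF4 lists have medians of -1.03, -1.06 and -1.40, and 3 of the 7 brakes lie above the upper line.

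Of 6 close copies of ribosomal proteins compared, 1 was higher and 3 were lower (50%, against 29.5% of all genes), and their median was -0.79. Under quantile normalization 1 was higher and 1 lower, with a median of -0.14. Rpl39l, the testis-enriched copy of Rpl39, was the lowest of all member genes, at 49940 in control and 3578 in busulphan (-3.59, 12.1-fold) on one probe and 1162 and 89.1 (-3.50) on the other. Rpl39 itself moved the opposite way, and the difference between the log2 ratios of the pair was 5.33 ± 0.29 (software error), or 40.2-fold. A scaling constant cancels from this difference. The busulphan signal of the dimmer Rpl39l probe was still well above background.

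Rpl36al, an autosomal copy of X-linked Rpl36a, had 6045 in control and 2114 in busulphan (-1.31). Rpl36a itself gave opposite readings: probe 3, printed above, had 22931 and 12183 (-0.70), while probes 1 and 2 had 2343 and 5869 (1.53) and 2282 and 5822 (1.56). The proteins of this pair are nearly identical, and whether probe 3 also reads Rpl36al was not tested. Rpl22l1 had 11310 and 4589 (-1.09) against 0.17 for Rpl22, a difference of 1.27 ± 0.29. Rpl7l1, a nucleolar relative of Rpl7, was on the other side, with 490 and 1408 (1.73) against -0.38 for Rpl7, a difference of -2.11 ± 0.29.

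Rpl3l, the striated muscle form of Rpl3, had 27.6 in control and 35.1 in busulphan (0.55) against 0.72 for Rpl3. Rps27l had 12982 and 8026 (-0.48). Rps27 was at least 1.29-fold lower because its control spot was saturated, so the difference between the pair has no size. The probe carrying the name Rps27 lies on chromosome 9 in the files and the Rps27 gene on chromosome 3 in RefSeq, so that its identity is uncertain. The same holds for Rps29, whose probe lies on chromosome 2 and gene on chromosome 12.

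**Figure D3:**
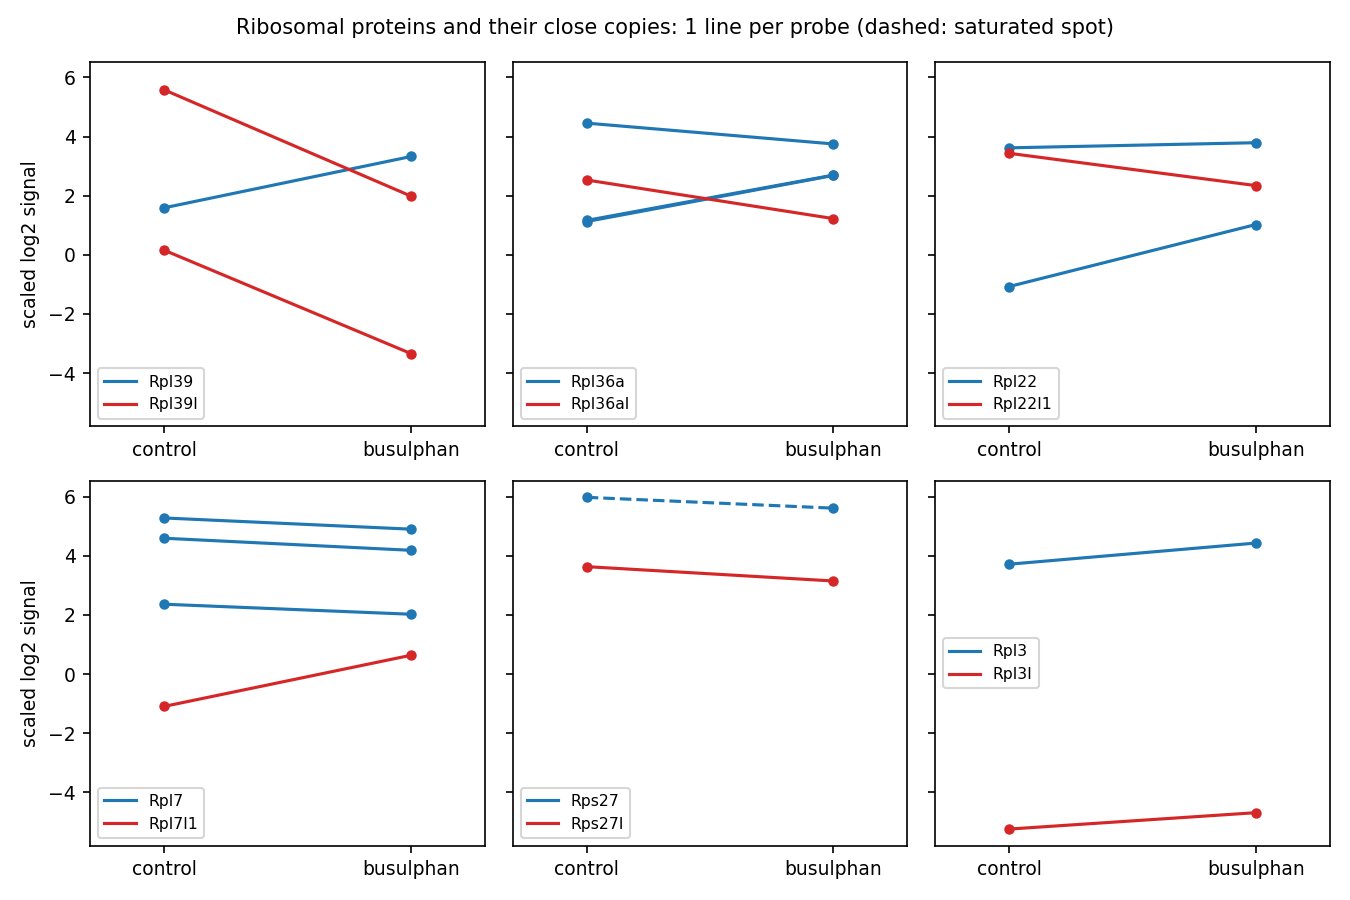
Scaled log2 signal (y, log2 of signal relative to the array's 75th percentile) in control and busulphan (x) for 6 ribosomal proteins (blue) and their close copies (red), 1 line per probe, dashed where a spot was saturated. Both Rpl39l lines run down while Rpl39 runs up, and the 3 Rpl36a lines do not run in parallel.

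Genes named for the core initiation factors were the members with the most low values in busulphan. Of 20 genes named for eIF2, eIF2B, eIF3 or eIF4, brakes apart, none was at least 2-fold higher. At least 2-fold lower were 12 (60%, against 29.5% of all genes), and the median log2 ratio was -1.14. The grouping goes by name, so Eif2d and Eif4e2 are among the 20 whatever their role. In the 12 alternatives none of these genes was higher, 9 to 16 were lower, and the median ran from -2.03 to -0.74. Genes at the brighter levels had lower ratios in general. At a scaled log2 level of 4 or more, the median was -0.55 for all genes and -1.06 for 6 translation factors of any list. At levels of 2 to 4 it was -0.56 and -0.80 (11 factors), and at 0 to 2 it was 0.05 and 0.04 (11 factors). Below 0 it was 0.19 and -0.10 (7 factors). In the eIF2 and eIF2B list, 3 of 6 were lower. Eif2s1, the alpha subunit of eIF2 and the site of its regulatory phosphorylation, had 8638 in control and 2279 in busulphan (-1.71) on one probe and 636 and 208 (-1.40) on the other. Of the eIF2B exchange factor, Eif2b4 had 14759 and 3572 (-1.84) and Eif2b5 had 2846 and 1033 (-1.25), whereas Eif2b2 had 8505 and 4217 (-0.80) and Eif2b1 had 2681 and 2887 (0.32).

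In the eIF3 complex, 5 of 8 subunits were at least 2-fold lower and the median was -1.06, while under quantile normalization 3 were lower and the median was -0.28. Eif3b, a scaffold subunit, had 55127 in control and 10985 in busulphan (-2.12), and Eif3k had 4943 and 1026 (-2.06). Eif3e had 8723 and 2543 (-1.57), and Eif3h 28155 and 12065 (-1.01). Eif3c, saturated in control on its brightest probe, was at least 2.16-fold lower, and its other 3 probes had -1.44, -1.95 and -0.87. Eif3a, the largest subunit, stood apart at 7076 and 7005 (0.19), with Eif3l (-0.82) and Eif3i (-0.66) in between. Subunits of the same complex thus ranged over more than 2 log2 units.

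Of 6 eIF4 genes, 4 were lower, with a median of -1.40, while under the median over probes 2 were lower and the median was -0.61. Eif4g1, the scaffold that joins the cap-binding protein to eIF3, had 19874 in control and 3066 in busulphan on probe 1 (-2.49, 5.61-fold). Its probe 2 was dim, at 19.7 and 27.6 (0.70), and read the other way. Eif4b, which stimulates the eIF4A helicase, had 4770 and 1181 on probe 2 (-1.81), 746 and 101 on probe 3 (-2.68) and 502 and 678 on probe 1 (0.64). Eif4e2, an alternative cap-binding protein, had 9999 and 2767 (-1.65) on its brightest probe, with -2.57 and -2.84 on others. Eif4e3 had 650 and 251 (-1.16) on one probe and 38.3 and 91.9 (1.47) on the other. The main cap-binding protein, Eif4e, stood at 2392 and 2348 (0.18), and Eif4g2, a scaffold that does not bind Eif4e, at 8647 and 6650 (-0.17). The genes with low values were thus mixed with partners close to no difference.

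Of the eIF1A pair, Eif1a had 3657 in control and 3260 in busulphan (0.04). X-linked Eif1ax had 8813 and 5350 (-0.51) on its brighter probe and 92.8 and 805 (3.33) on the other, the highest ratio of any member probe measured on both arrays.

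Of 7 genes listed as brakes on initiation, 3 were at least 2-fold higher (42.9%, against 31.3% of all genes) and none lower. The median log2 ratio was 0.57, though under spike-in scaling it was -0.32, with 2 higher and 2 lower. Under the median over probes it was 1.21, with 4 higher and 1 lower. Eif2ak2 (PKR, activated by double-stranded RNA) had 69.1 in control and 323 in busulphan (2.43, 5.4-fold), the highest of all member genes. Eif2ak3 (PERK, activated by endoplasmic reticulum stress) had 66.1 and 303 (2.41), and Eif2ak4 (GCN2, activated by uncharged tRNA) 173 and 555 (1.89). Eif2ak1 (HRI, activated by heme shortage) had 581 and 402 (-0.33); it alone of the 4 eIF2 kinases did not pass 2-fold. These are transcript levels and carry no reading of kinase activity.

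The eIF4E-binding brakes differed less. Eif4ebp1 had 1851 in control and 2380 in busulphan (0.57) on its brighter probe and 16.2 and 50.5 (1.85) on the other. Eif4ebp2 had 1343 and 1666 (0.52). Eif4enif1, the transporter that carries eIF4E into the nucleus, had 786 and 518 (-0.39) on one probe and 915 and 184 (-2.10) on the other. Only Eif2ak2, Eif2ak3 and Eif2ak4 of this list passed 2-fold on the probe used.

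Of 7 elongation factor genes 6 could be compared. Of these, 1 was higher (16.7%, against 31.3% of all genes) and 2 were lower (33.3%, against 29.5%). Eef1a1, which brings aminoacyl-tRNA to the ribosome, had signals of 61690 in control and 59672 in busulphan on a saturated probe and 38726 and 32228 (-0.06) on another. Its exchange factor subunits split: Eef1b2 had 12107 and 10694 (0.03), while Eef1d was saturated in control at 65154 against 14851 and so at least 3.8-fold lower. The other Eef1d probe had 9476 and 122 (-6.07), the lowest ratio of any member probe. Eefsec, the factor for selenocysteine, had 2911 and 507 (-2.31). Eef1e1, a scaffold of the multisynthetase complex, had 692 and 1410 (1.24), and Eif5a, which helps stalled ribosomes forward, 14052 and 9055 (-0.43).

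Probes of the same gene often gave different readings. Among 40 member genes with at least 2 probes measured on both arrays, 14 had ratios more than 1 log2 unit apart (35%), compared with 978 of 2321 genes (42.1%) on the arrays. These were 6 of 28 ribosomal protein genes (21.4%) and 8 of 12 factor genes (66.7%). In Rpl22 the brighter probe had 12850 in control and 12538 in busulphan (0.17) and the other 496 and 1840 (2.10). In Rpl23 the values were 35656 and 23097 (-0.42) against 177 and 620 (2.02). Rps24 gave -0.96, 0.62 and 1.83 from its brightest to its dimmest probe. The dimmest probe had the higher ratio in 24 of 40 members (60%), compared with 45.2% of all genes with several probes. The cause of these disagreements was not tested.

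**Figure D4:**
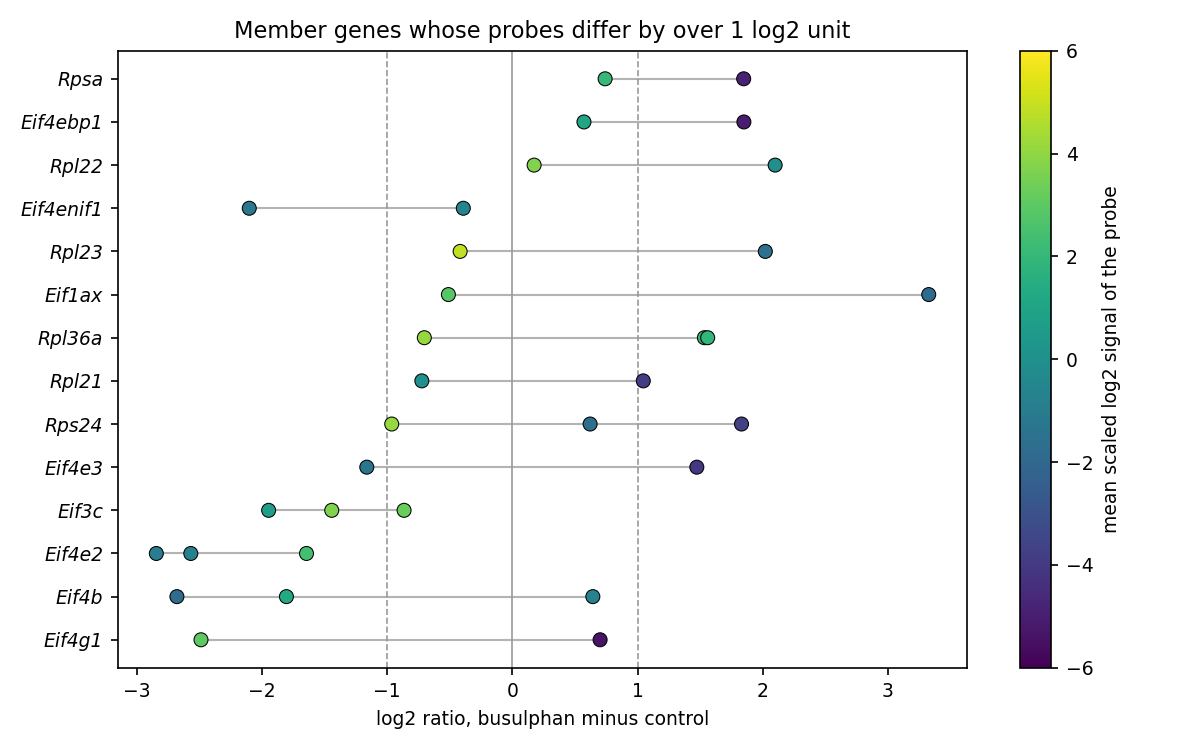
Log2 ratio, busulphan minus control (x), of every probe measured on both arrays for the 14 member genes (y) whose probes differ by more than 1 log2 unit, coloured by the probe's mean scaled log2 signal. The dimmest probe (dark) is the rightmost in 10 of the rows, and Eif1ax runs from -0.51 to 3.33.

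Genes around the ribosome come from lists kept apart from the members. Their shares are set against 31.3% higher and 29.5% lower among all genes. Of 18 ribosome biogenesis genes, 5 were higher (27.8%) and 4 lower (22.2%), with a standard deviation of 1.43. Ubtf, which drives ribosomal RNA transcription, had 1401 in control and 9175 in busulphan (2.92), with 2.74 on its other probe, and Nhp2, of the pseudouridylation complex, 2009 and 8055 (2.21). Wdr12, needed for large subunit assembly, had 9226 and 1099 (-2.86), with -0.75 on its other probe. The RNA polymerase subunit Polr1d had 11023 and 2882 (-1.73), with -0.78 on its other probe. Of 17 aminoacyl-tRNA synthetases, 4 were higher (23.5%) and 3 lower (17.6%), with a standard deviation of 1.27. Vars had 5672 and 553 (-3.15), with -3.61 on its other probe, and Farsa had 2394 and 655 (-1.66). Nars had 148 and 498 (1.96), and Sars had 2331 and 5031 (1.32).

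Of 16 genes of the mTOR and S6 kinase pathway, which tunes translation to nutrients, 6 were higher (37.5%, against 31.3% of all genes) and 4 lower (25%, against 29.5%). Mtor had 4333 in control and 670 in busulphan (-2.48), and its inhibitor Tsc1 1546 and 270 (-2.31), although 1 of 3 Tsc1 probes read 1.94. The kinases Rps6ka2 (60.5 and 653, 3.64) and Rps6kb1 (113 and 408, 2.06) were higher. Other Rps6kb1 probes measured on both arrays gave 1.75 and 0.83. Of 4 poly(A) tail genes, Pabpc4 (319 and 2429, 3.14) and the inhibitor Paip2 (5329 and 12084, 1.39) were higher, Pabpn1 (19115 and 7836, -1.08) was lower and Paip1 stood at 0.19. Both termination genes, Gspt1 (-0.44) and Abce1 (0.07), lay within 2-fold on the probe used, but the other Abce1 probe had 334 and 40.6 (-2.83). Of 6 ribosome-associated genes, Rack1 (23181 and 41237, 1.04) and Hnrnpa1 (2084 and 4078, 1.18) were higher and Btf3 (21489 and 7140, -1.38) and Naca (32774 and 12563, -1.17) were lower.

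The gap between ribosomal proteins and translation factors kept its direction under every processing tried, while their position against 0 did not. The ribosomal protein median exceeded the factor median by 0.37 in the reported values and by 0.34 to 0.68 in the 12 alternatives. A scaling constant largely cancels from this gap and from medians taken relative to all genes. Alternatives that only rescale are therefore little check on either, and the gap was also 0.37 under median, spike-in and no scaling. Spike-in scaling moved the median of all genes by -0.88, and relative to all genes the factor median lay between -0.65 and -0.34 in all 12 alternatives. Relative to all genes the ribosomal protein median lay between -0.28 and 0.33, with only quantile normalization above 0. Beside genes of equal level, as reported, the subunit protein median was higher at the brighter levels. It was -0.10 against -0.55 at log2 of 4 or more (47 genes) and -0.004 against -0.56 at 2 to 4 (18 genes). At dimmer levels it was lower, at -0.65 against 0.05 for 0 to 2 (4 genes) and -0.12 against 0.19 below 0 (3 genes).

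**Figure D5:**
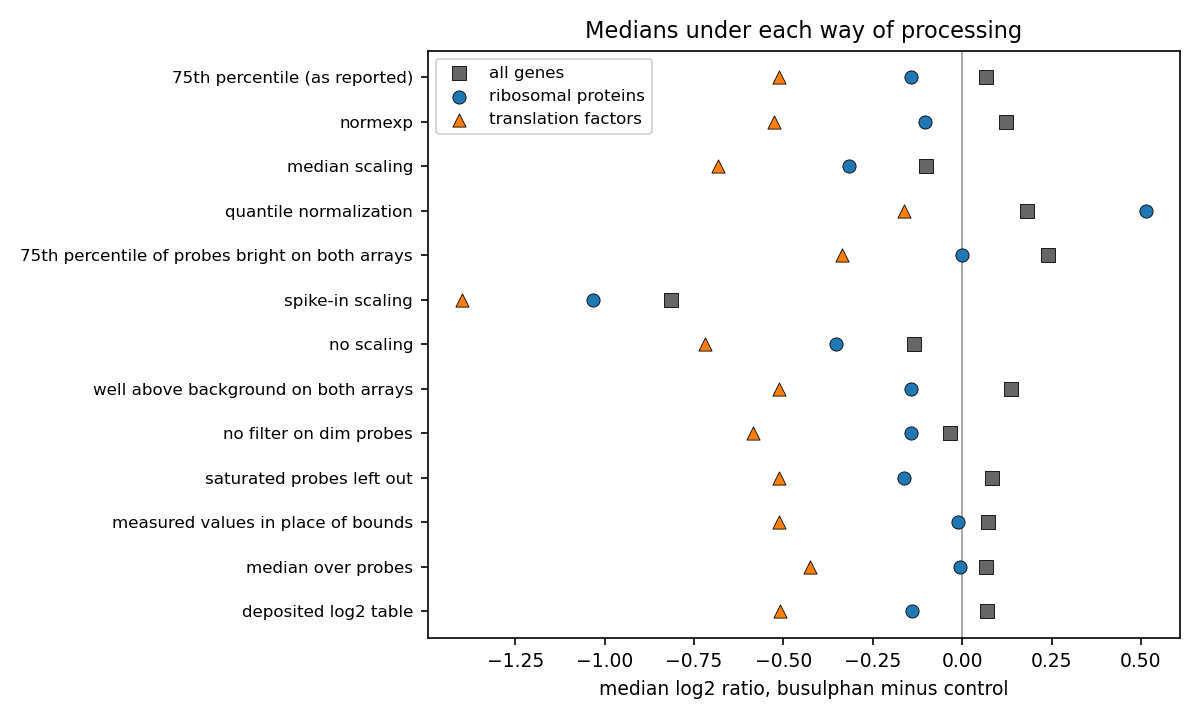
Median log2 ratio, busulphan minus control (x), of all genes, ribosomal proteins and translation factors under the reported processing and 12 alternatives (y). The factor median lies left of the ribosomal protein median in every row, and spike-in scaling shifts all 3 to the left. A scaling constant moves all 3 nearly alike, so rows that only rescale are little check on the gap.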

How the data were processed

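The deposited intensity values are processed spot signals. Per the file headers, they come from version 11.5.1.1 of Agilent Feature Extraction, and background subtraction and a per-spot error estimate were part of it. The deposited log2 table equals log2 of those signals minus a constant per array (10.03 control, 9.82 busulphan), so its scale and direction follow from the values, and its medians were -2.94 and -2.77. The authors' genome build for the probe positions is mm9, per the file headers, and no genome was used here.

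Each signal was put on a log2 scale and set against the 75th percentile of its array's non-control probes. The 4 probes marked as outliers were left out, and probes well above background on neither array were not compared. A gene took its probe of highest mean, and was left out where that probe was saturated on both arrays. Where 1 spot was saturated or not well above background, the ratio is a bound, written as at least so many fold, for which a dim spot takes the higher of its own signal and the lowest signal well above background on that array. In 5 member genes the saturated spot left the direction unsettled, so their ratio was entered as 0. With 1 array per group, a rule of size (2-fold) replaced any test, and the number of arrays limits the precision.

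RefSeq accessions matched 13300 probes and gave the names of those outside the members, and the remaining 1908 kept the file's name. Member probes all kept the file's name, and of the 170 with a RefSeq match 2 had another symbol there. The members and lists were chosen with earlier results of these data known. Genes named are the 10 highest and 10 lowest members, the 2 highest and 2 lowest of each list, close copies whatever their value, and genes whose probes differ by more than 1 log2 unit. Further genes were named after their values were seen, to show more of each complex and subunit, and some member values are not reported here. Alternatives were normexp background correction (limma 3.58.1, offset 50), 5 other scalings, other filters, and other uses of saturated or multiple probes. Calls were tested on simulated data.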

Additional observations from a re-analysis of the deposited data

How the results depend on the processing

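The counts of members at least 2-fold higher and lower, 9 and 23 as reported, depended most on scaling. Quantile normalization gave 21 and 13, with medians of 0.51 for ribosomal proteins and -0.16 for translation factors. Spike-in scaling gave 3 and 62, with medians of -1.03 and -1.40, and no scaling gave medians of -0.35 and -0.72. Scaling by the 75th percentile of probes that were bright on both arrays gave 15 lower, and the median over probes 15 higher. A threshold of 1.5-fold gave 16 higher and 35 lower, and one of 4-fold gave 2 and 5. Counts under the other settings stayed within 1.5 times those reported.

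Of 76 named genes, 25 turned sign under at least 1 alternative, 13 of them under spike-in scaling, 8 under the median over probes and 7 under quantile normalization. Among genes past 2-fold as reported, the sign turned for log2 ratio of Rps13, to 2.06 with saturated probes left out and 0.48 with the median over probes, and for log2 ratio of Eif4e3, to 0.15 with the median over probes. Both genes have probes that read opposite ways. Under the median over probes Rpl36a moved from -0.70 to 1.53, Eif1ax from -0.51 to 1.41, Rps24 from -0.96 to 0.62, Rpl23 from -0.42 to 0.80, Rpl21 from -0.72 to 0.16 and Abce1 from 0.07 to -1.38. Of the named genes, 52 kept their side of 2-fold under spike-in scaling and 63 under quantile normalization. No paired analysis was possible because each group has 1 array. Saturation limits how far the brightest members can be sized, and dim probes limit the low end.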

Other observations

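Member genes on the X chromosome were placed higher than the others, as were X-linked genes in general. This grouping was made after the values of Rps4x and Rpl39 were seen. Of 5 X-linked members compared, Rps4x, Rpl39 and Rpl10 were at least 2-fold higher in busulphan, none was lower, and the median log2 ratio was 1.02. Of 108 members elsewhere, 6 were higher, 23 were lower and the median was -0.21. Over the 9 single probes of these genes, 7 were higher, with a median of 1.53. These include probes of Rpl36a and Eif1ax, whose genes were not called by their brightest probe. Rpl10 probe 2 has no position in the files and is counted because Rpl10 probe 1 lies on the X chromosome. Its value is also the gene median of 1.02 above. Among all genes, the 289 on the X chromosome had a median of 1.54 with 59.5% higher, and the 9067 elsewhere had a median of 0.03 with 30.4% higher. The median of the X-linked members lay between 0.13 and 1.77 in the 12 alternatives, the lowest under spike-in scaling.

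A single member probe can carry a gene's whole reading: 69 of 119 member genes have 1 probe, among them Rps4x, Rpl39, Eif2ak2, Eif2ak3, Eif3b and Eefsec, and no other probe checks their values.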
